A study of Mus musculus with 10 samples.

Results

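The interferon receptor chains Ifnar1, Ifnar2, Ifngr1 and Ifngr2, the receptor-bound kinase Jak2 and the phosphatase Ptpn2 were followed through 3 groups of sorted mouse B cells. They were chosen by name, as the rows of the count table that carry these symbols, and make up 6 of its 46316 genes. All 6 had enough counts to be tested, in every library. In pBIC against normal cells, and in pBIC10 against pBIC, Ifngr1 and Ifngr2 changed in opposite directions: the pBIC group had the lowest Ifngr1 and the highest Ifngr2 of the 3 groups. The Ifngr1 call in pBIC10 against pBIC and the Ifngr2 call in pBIC against normal cells were each lost in 7 of 22 alternative analyses. In pBIC10 against normal cells both genes were lower, Ifngr2 at an adjusted p close to the threshold. Jak2 was lower in both lymphoma groups than in normal germinal centre B cells and Ifnar2 was higher, whereas Ifnar1 and Ptpn2 did not pass the test in any comparison.

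All 10 libraries are poly(A) RNA from B220+ reporter+ cells sorted from the spleens of C57BL/6 mice, and all mice carry the Cg1Cre allele in 1 copy (Cg1Cre/+). The pBIC group (n = 3, all females) models ABC-DLBCL, the activated B cell-like kind of diffuse large lymphoma. Its mice carry floxed alleles of p53 (p53F/F) and of Blimp1 (Blimp1F/F), which Cre removes, and IKK2castopF/stopF, from which Cre makes a constantly active IKK2 kinase. The pBIC10 group (n = 3, 2 females and 1 male) carries these same alleles and, in addition, IL-10F/F, so that its lymphoma cells also lose the gene of the cytokine IL-10. Lymphoma cells were taken from mice that had become moribund. The YC group (n = 4, 3 females and 1 male) carries YFPstopF/+, a YFP reporter that Cre switches on, beside Cg1Cre/+. It holds normal germinal centre B cells. These mice had been immunised 2 times with sheep erythrocytes, and spleens were taken 10 days after the last dose. A few YC label entries use the wording of the lymphoma samples, and YC is described here after the series design. Cre from the Cg1 locus acts in germinal centre B cells, and whether the lymphoma cells had passed through that stage was not tested.

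Interferon gamma binds a receptor of a ligand-binding chain, IFNGR1, and a signalling chain, IFNGR2, which carry the kinases JAK1 and JAK2 and activate transcription factors of the STAT family. The type I interferons bind IFNAR1 and IFNAR2, which carry TYK2 and JAK1 and activate STAT proteins that act with IRF9. PTPN2 is a phosphatase that removes phosphate from JAK1, JAK3 and STAT proteins and so limits both responses. In B cells interferon gamma is known for class switching and for inducing antigen presentation genes.

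Promoter sequences of 5 of the 6 genes were matched by symbol in RefSeq (GRCm38.p6, an earlier build than that of the counts), each the 250 bases before the annotated start, on the + strand. The windows of 3 receptor chains are shown, since Ifngr1 and Ifngr2 changed in opposite directions between pBIC and each other group, and Ifnar2 was the chain of the type I receptor that changed. Ifngr1 lies at chr10:19591699-19591948, Ifngr2 at chr16:91546809-91547058 and Ifnar2 at chr16:91372533-91372782. Capitals mark a match to the NF-kB consensus in Ifngr2, and in Ifnar2 a match to the STAT site (GAS) TTCNNNGAA.
Ifngr1: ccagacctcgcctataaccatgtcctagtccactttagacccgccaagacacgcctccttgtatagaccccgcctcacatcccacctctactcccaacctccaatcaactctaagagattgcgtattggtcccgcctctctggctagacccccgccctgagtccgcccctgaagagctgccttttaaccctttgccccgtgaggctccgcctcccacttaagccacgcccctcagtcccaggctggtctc
Ifngr2: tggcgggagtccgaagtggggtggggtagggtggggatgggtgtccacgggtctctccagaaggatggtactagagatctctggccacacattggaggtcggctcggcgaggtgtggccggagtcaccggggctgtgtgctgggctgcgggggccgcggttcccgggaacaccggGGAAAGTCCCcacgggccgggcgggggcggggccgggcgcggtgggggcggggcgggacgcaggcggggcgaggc
Ifnar2: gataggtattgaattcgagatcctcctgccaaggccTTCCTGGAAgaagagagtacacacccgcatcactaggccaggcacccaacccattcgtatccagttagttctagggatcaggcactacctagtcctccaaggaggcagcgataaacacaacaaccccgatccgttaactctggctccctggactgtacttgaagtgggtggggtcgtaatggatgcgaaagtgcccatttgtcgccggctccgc
Each motif was searched on both strands, as were GGGCGG (GC box) and the interferon-stimulated response element (ISRE) core. Ifngr2 held 4 GC boxes and its NF-kB match began 75 bases before the start. Ifngr1 held 2 GC boxes and none of the other motifs, and the GAS match of Ifnar2 began 214 bases before the start. Among 32851 promoter windows of this length, 7.25% held the NF-kB consensus, 7.02% the GAS pattern, 32.7% a GC box and 2.98% the ISRE core, which none of the 5 windows had. The GC content was 59.2% for Ifngr1, 74.0% for Ifngr2 and 54.0% for Ifnar2, against a median of 52.4% over all windows. A match describes the letters of a window and is not evidence of binding.

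Total counts were 17.1 to 18.6 M in pBIC10, 17.8 to 19.13 M in pBIC and 12.59 to 14.3 M in YC. The 6 genes had 368 to 1684 counts in a library, a counting error of 5.21% at the lowest and 2.44% at the highest. B cell markers were present in all groups, with sums of 7990 to 10100 CPM (counts per M, TMM-scaled) in YC, 1870 to 3410 in pBIC and 2520 to 4310 in pBIC10. Of these markers Cd79a, at 725 CPM in pBIC10 replicate 2, lay within the YC range of 655 to 791. Summed germinal centre markers were 595 to 1170 CPM in YC, 64.6 to 81.8 in pBIC and 35.9 to 63.9 in pBIC10. The targeted genes Trp53 and Prdm1 were below every YC library in both lymphoma groups, and Il10 was 1.99 to 4.77 CPM in pBIC10, 6.84 to 19.4 in pBIC and 4.23 to 9.98 in YC. Reads from outside a deleted part cannot be told from others in a count per gene. Each lymphoma group shared 1 leading Ighv segment, Ighv7-3 with 67.4 to 70.5% of Ighv counts in pBIC10 and Ighv8-11 with 51.6 to 59.1% in pBIC, while each YC library had a different one at 3.73 to 10.9%. The labels do not say whether the libraries of a lymphoma group come from separate tumours, so their p-values measure the spread between these libraries. The pBIC10 libraries were made for this series and the others for an earlier one, and in either comparison with pBIC10 the batch cannot be told apart from the group.

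Summed markers of other cell types were higher in YC than in the lymphoma groups for several lists, though not for every marker or list. All 9 T cell markers had counts in every group, with summed levels of 403 to 600 CPM in YC, 72.3 to 120 in pBIC and 143 to 232 in pBIC10, and Cd3e at 7.92 to 27.6, 1.18 to 1.92 and 0.176 to 0.708. Cd2 went the other way in part, at 186, 191 and 78.3 CPM in the pBIC10 libraries, the larger share of their sum, against 101 to 139 in YC, and Cd8b1 was at 44.9 CPM in pBIC replicate 3 against 10.3 to 39.2 in YC. The 7 macrophage and monocyte markers summed to 118 to 190, 11.2 to 71.0 and 7.79 to 13.1 CPM, and the 4 natural killer cell markers to 9.55 to 21.4, 1.93 to 2.77 and 0.469 to 1.12, with Klre1 at 0 in pBIC10. The 5 erythroid markers were instead highest in pBIC10, at 318 to 842 CPM, against 15.7 to 336 in pBIC and 90.3 to 272 in YC. The part of these markers in the differences below was not tested, and in sorted bulk cells fewer cells of a type and less RNA per cell cannot be told apart.

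**Figure D1:**
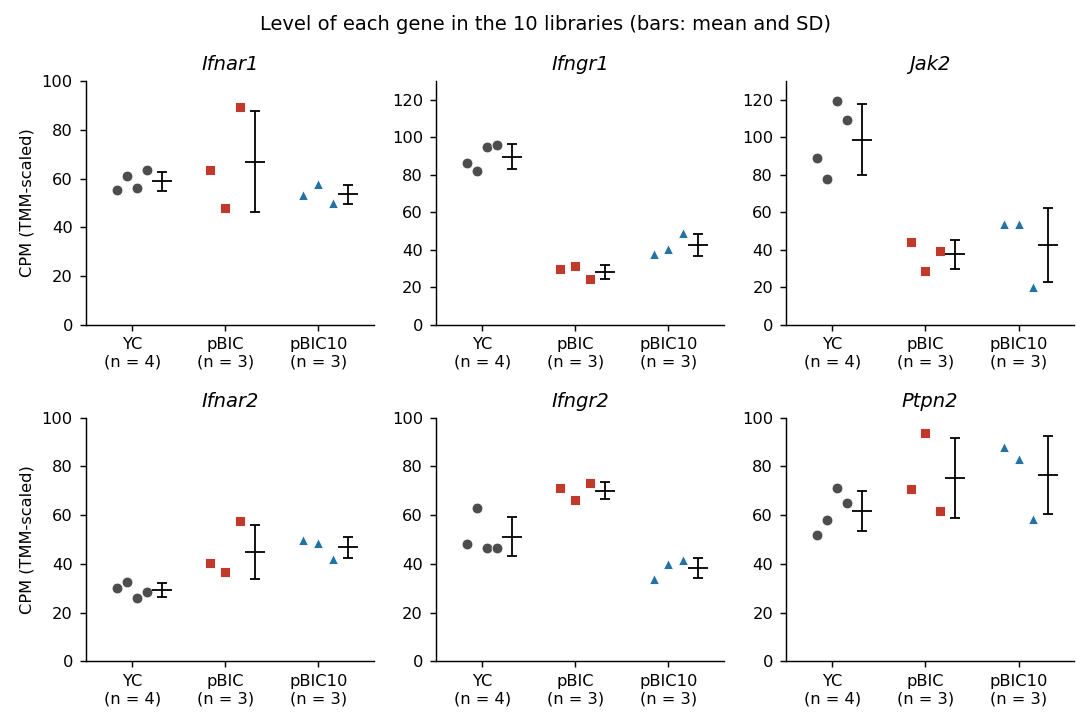
Level of each of the 6 genes in CPM (TMM-scaled, linear axis from 0) in every library, 1 panel per gene, with points for libraries of YC (n = 4), pBIC (n = 3) and pBIC10 (n = 3) and bars for the mean and SD. The axis is longer for Ifngr1 and Jak2. Ifngr1 and Jak2 sit highest in YC, and Ifngr2 sits highest in pBIC and lowest in pBIC10.

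Ifngr1 encodes the ligand-binding chain of the interferon gamma receptor. Its YC libraries had 86.3, 82.0, 94.8 and 95.6 CPM, against 29.8, 31.1 and 24.2 in pBIC and 37.8, 40.5 and 48.9 in pBIC10. The 3 groups do not overlap, with YC highest and pBIC lowest. Against YC it was 3.17-fold lower in pBIC (log2 fold change -1.66 ± 0.17 SE, edgeR adjusted p = 7.17e-06) and 2.12-fold lower in pBIC10 (-1.08 ± 0.16, edgeR adjusted p = 0.000132). It was 1.5-fold higher in pBIC10 than in pBIC (0.58 ± 0.17, edgeR adjusted p = 0.02). That last call was lost in 7 of 22 alternatives. Among them were a sex covariate (edgeR adjusted p = 0.053), females alone (0.109) and a fit of only the 2 groups (0.0772). Others were the omission of pBIC10 replicate 3, the male (0.48, adjusted p = 0.0739), and of pBIC replicate 3 (0.48, adjusted p = 0.0579). Over the 22 alternatives its adjusted p ranged from 0.0105, with DESeq2, to 0.109, in females alone.

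Ifngr2 encodes the signalling chain of the same receptor and followed another order. Its levels were 71.0, 66.1 and 73.1 CPM in pBIC, 48.3, 63.1, 46.6 and 46.5 in YC and 33.7, 40.2 and 41.4 in pBIC10. All pBIC libraries lay above all others, and all pBIC10 libraries below all others. It was 1.82-fold lower in pBIC10 than in pBIC (-0.87 ± 0.17, edgeR adjusted p = 0.00226), and the call held under all 22 alternatives, with estimates of -0.94 to -0.77. Against YC it was 1.37-fold higher in pBIC (0.46 ± 0.16, edgeR adjusted p = 0.0283) and 1.33-fold lower in pBIC10 (-0.41 ± 0.16, edgeR adjusted p = 0.0496). Both calls against YC were close to the threshold: the first was lost in 7 of 22 alternatives and the second in 15 of 22. The first was lost with any of pBIC replicate 3 (adjusted p = 0.0644) and YC replicates 1, 3 and 4 (0.0828, 0.0794 and 0.0913) left out. The second was lost without any one of the pBIC10 or YC libraries, and without pBIC replicate 2 or 3 (adjusted p up to 0.198).

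The ratio of Ifngr2 to Ifngr1 counts within a library is independent of scaling. It was 2.39, 2.13 and 3.03 in pBIC, 0.892, 0.993 and 0.848 in pBIC10 and 0.559, 0.769, 0.492 and 0.486 in YC. Groups do not overlap, with the ratio highest in pBIC and lowest in YC. On the log2 scale the means were 1.31 ± 0.26, -0.14 ± 0.12 and -0.82 ± 0.31 (SD; n = 3, 3 and 4). The difference was 2.13 for pBIC against YC (4.39-fold, exact two-sided permutation p = 0.0571), -1.45 for pBIC10 against pBIC (2.73-fold, exact p = 0.1) and 0.68 for pBIC10 against YC (1.61-fold, exact p = 0.0571). These p-values are the smallest the group sizes allow, 0.1 for 3 against 3 and 0.0571 for 3 against 4, so that none could pass 0.05. Over the 9 comparisons of 3 ratios, the adjusted p is 0.0857 where the exact p is 0.0571 and 0.113 where it is 0.1.

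**Figure D2:**
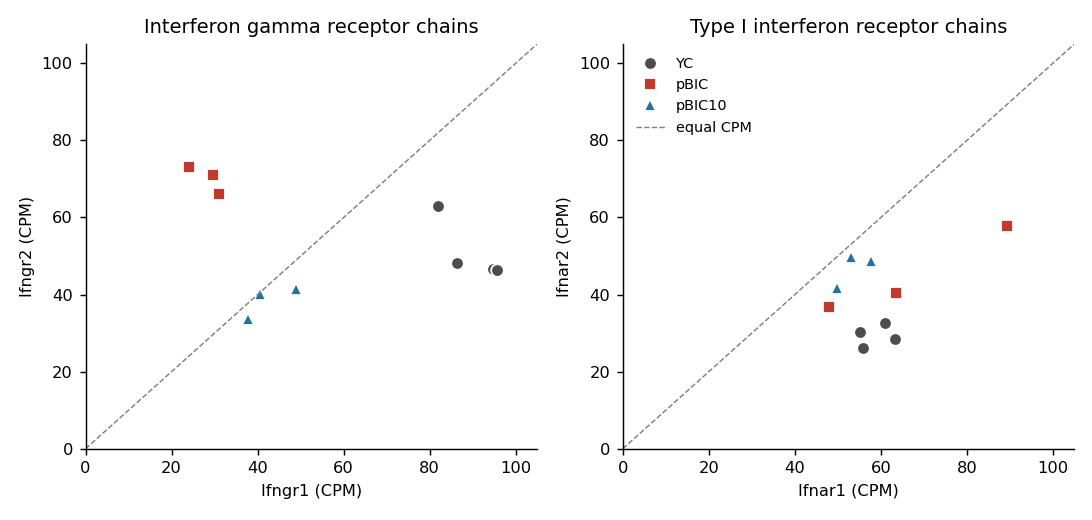
Level of the 2 chains of each receptor plotted against each other in CPM (linear axes from 0), with a point per library of YC (circles, n = 4), pBIC (squares, n = 3) and pBIC10 (triangles, n = 3) and a dashed line at equal CPM. For the interferon gamma receptor the pBIC libraries lie above the line and the YC libraries below it, and for the type I receptor all 10 libraries lie below it. CPM is not corrected for gene length.

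Ifnar2 encodes a chain of the type I interferon receptor. It stood at 30.2, 32.7, 26.0 and 28.6 CPM in YC, 40.5, 36.8 and 57.7 in pBIC and 49.8, 48.7 and 41.8 in pBIC10. Every lymphoma library lay above every YC library, and the lymphoma groups overlapped. It was 1.53-fold higher in pBIC (0.62 ± 0.18, edgeR adjusted p = 0.0122) and 1.59-fold higher in pBIC10 (0.67 ± 0.18, edgeR adjusted p = 0.0079) than in YC. The difference between pBIC10 and pBIC was 0.05 with a 95% interval of -0.37 to 0.48 (edgeR adjusted p = 0.863). Without pBIC replicate 3 the first call was lost (0.40, adjusted p = 0.0691). An Ifnar2 exon overlaps the exons of another annotated gene, Gm21970, over 315 bases on the same strand, so its counts are uncertain there. The deposited counts hold no row under the name of the other gene, so it could not be analysed.

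Ifnar1, the other chain, did not pass the test in any comparison. It stood at 55.1, 60.9, 56.0 and 63.4 CPM in YC, 53.0, 57.7 and 49.8 in pBIC10, and 63.5, 48.0 and 89.3 in pBIC, which spans both other groups. Estimates were -0.32 (95% interval -0.77 to 0.12) for pBIC10 against pBIC, 0.19 (-0.23 to 0.60) for pBIC against YC and -0.14 (-0.55 to 0.28) for pBIC10 against YC. Without pBIC replicate 2 it was called lower in pBIC10 than in pBIC (-0.55, adjusted p = 0.039) and higher in pBIC than in YC (0.44, adjusted p = 0.0442). In each library Ifnar2 had fewer counts than Ifnar1, with no correction for length (3329 exon bases for Ifnar2, 5940 for Ifnar1). The ratio was 0.939, 0.844 and 0.840 in pBIC10, 0.638, 0.767 and 0.646 in pBIC and 0.548, 0.537, 0.465 and 0.451 in YC. The groups do not overlap, with log2 differences of 0.36 (exact p = 0.1) for pBIC10 against pBIC, 0.45 (exact p = 0.0571) for pBIC against YC and 0.81 (exact p = 0.0571) for pBIC10 against YC, again the smallest exact permutation p-values allowed.

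Jak2 encodes a kinase bound to IFNGR2 and other cytokine receptors. It stood at 89.2, 77.5, 119 and 109 CPM in YC, 44.3, 28.9 and 39.2 in pBIC and 54.0, 53.5 and 19.9 in pBIC10. Every YC library was above every lymphoma library, while the lymphoma groups overlapped and pBIC10 replicate 3 was the lowest of all 10. It was 2.63-fold lower in pBIC (-1.40 ± 0.31, edgeR adjusted p = 0.00261) and 2.33-fold lower in pBIC10 (-1.22 ± 0.31, edgeR adjusted p = 0.00591) than in YC. Without pBIC10 replicate 3 the pBIC10 difference was -0.86 (adjusted p = 0.0088), and in females alone -0.76 (adjusted p = 0.0229). Both calls held under all 22 alternatives.

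**Figure D3:**
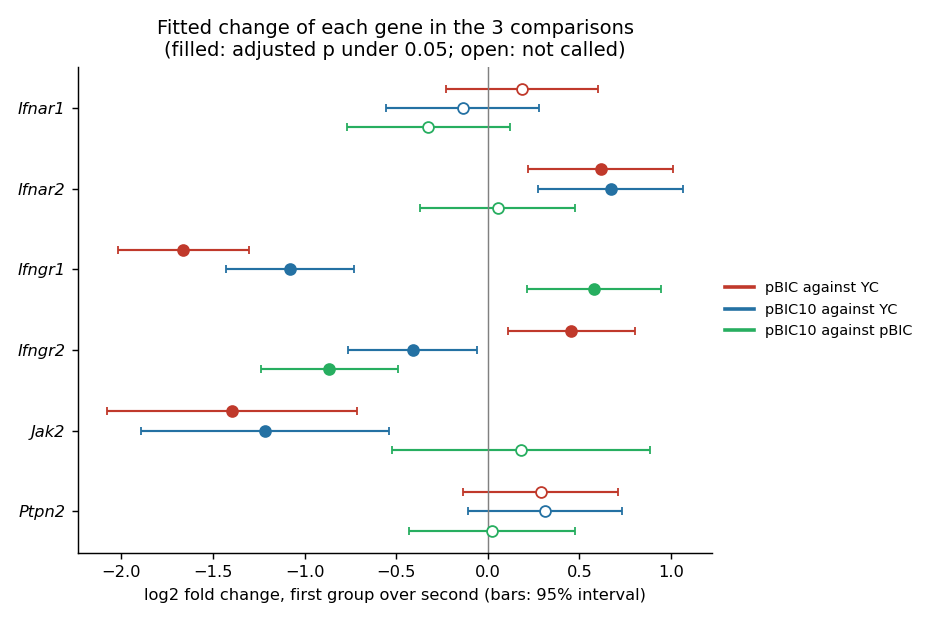
Log2 fold change of the 6 genes in the 3 comparisons, with bars for 95% intervals (edgeR), filled points where the adjusted p was under 0.05, and a vertical line at 0. Intervals of Ifngr1 and Jak2 against YC lie wholly below 0, those of Ifnar2 above 0, and intervals of Ifnar1 and Ptpn2 span 0 in every comparison.

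Ptpn2 encodes a phosphatase that acts on JAK and STAT proteins. It stood at 52.1, 58.2, 71.0 and 65.0 CPM in YC, 70.6, 93.6 and 61.5 in pBIC and 88.1, 83.2 and 58.2 in pBIC10, with overlapping groups. It did not pass the test in any comparison, at 0.02 (-0.43 to 0.48), 0.29 (-0.13 to 0.71) and 0.31 (-0.11 to 0.74) in pBIC10 against pBIC, pBIC against YC and pBIC10 against YC. These intervals allow a change of up to 0.74 on the log2 scale. The ratio of Jak2 to Ptpn2 counts was 1.71, 1.33, 1.68 and 1.68 in YC, 0.628, 0.309 and 0.637 in pBIC and 0.613, 0.643 and 0.342 in pBIC10. YC lay above both lymphoma groups, with log2 differences of -1.68 for pBIC and -1.63 for pBIC10 against it (exact p = 0.0571 for each, the smallest allowed), and the lymphoma groups overlapped (0.04, exact permutation p = 0.8).

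By count of calls, 2 of the 6 genes passed the test between pBIC10 and pBIC (1 higher, 1 lower), where 30.7% of the tested genes did (15.6% higher, 15.1% lower). In pBIC against YC 4 of 6 passed (2 higher, 2 lower) against 54.1% (26.4% higher, 27.7% lower), and in pBIC10 against YC 4 of 6 (1 higher, 3 lower) against 51.7% (24.8% higher, 26.9% lower). These shares are near the background, so the counts of calls are not a result about these genes. The same genes called in each comparison were those with groups that do not overlap, a share of 41.8%, 54.2% and 61.0% of all tested genes. All 3 comparisons share samples with another, so that their values are given side by side only.

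Levels of different genes were compared per kb of exon, with lengths from a reference annotation of GRCm38 that was not the authors'. In YC, Ifngr1 was highest at 31.5 ± 2.33 CPM per kb, above Ptpn2 (19.7 ± 2.63) and Jak2 (19.6 ± 3.74), which overlapped each other. Ifngr2 (13.6 ± 2.13) did not overlap Ifnar1 (9.90 ± 0.667), the next lower, while Ifnar2 (8.82 ± 0.838) overlapped Ifnar1. In pBIC, Ptpn2 (24.1 CPM per kb) was followed by Ifngr2 (18.6) and Ifnar2 (13.5), with no overlap between neighbours, then Ifnar1 (11.3), Ifngr1 (9.95) and Jak2 (7.45), whose neighbours overlapped. In pBIC10 the order was Ptpn2 (24.5), Ifngr1 (14.9), Ifnar2 (14.1), Ifngr2 (10.2), Ifnar1 (9.01) and Jak2 (8.45), with gaps only below Ptpn2 and below Ifnar2. Thus Ifngr1 ranked above Ifngr2 in YC and pBIC10 and below it in pBIC, also with lengths of the longest coding transcript. By either length the order of Ifnar1 and Ifnar2 was not the same in each group. Some other orders and gaps depended on the length used. By the longest coding transcript, Ifnar1 (15.05 CPM per kb) ranked above Ifngr2 (13.78) in YC, and their ranges overlapped. In pBIC, Ifnar1 (17.13) came next below Ifngr2 (18.9) and overlapped it. In pBIC10, Ptpn2 (28.69) and Ifngr1 (20.07) overlapped, and Ifnar1 (13.69) ranked above Ifngr2 (10.37).

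The spread over all libraries, as the SD of log2 CPM, was 0.834 for Jak2, 0.761 for Ifngr1, 0.384 for Ifngr2, 0.378 for Ifnar2, 0.281 for Ptpn2 and 0.251 for Ifnar1. Among 10688 genes, the profile most like that of Ifngr1 was Pkmyt1, at a root mean square difference of 0.157 over 10 libraries on the centred log2 scale, then Zbtb21 and Coq10b at 0.184 each. Ifngr2 was followed by Adck1 (0.134), Ripk1 (0.148) and Snap23 (0.151), and Jak2 by Rab4b (0.241), Lipe (0.247) and Map4k1 (0.284). Ifnar1 was followed by Zfp408 (0.0971), Vps39 (0.115) and Atxn7l3 (0.139), Ifnar2 by Usp3 (0.115), Socs6 (0.121) and Ilrun (0.132), and Ptpn2 by Thoc1 (0.130), Lpcat3 (0.142) and Srsf6 (0.142). Within the 6, Ifnar1 and Ifngr2 were closest (0.318) and Ifngr1 and Ifngr2 stood 0.912 apart.

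Other genes of the pathway came from lists that hold 98 genes, of which 77 were tested. Between pBIC10 and pBIC 6 were higher and 39 lower (median log2 fold change -0.88, against -0.01 over all tested genes), where 15.6% and 15.1% of all tested genes were. In pBIC against YC 35 were higher and 23 lower (median 0.34, against 0.02), where 26.4% and 27.7% were, and in pBIC10 against YC 10 were higher and 38 lower (median -0.85, against 0.01), where 24.8% and 26.9% were. The ligands were near the limit of detection. Of 21 listed, 12 had 0 counts in every library and only Ifng, which encodes interferon gamma, was tested, with 14, 3 and 6 counts in pBIC10, 14, 34 and 7 in pBIC and 83, 41, 17 and 93 in YC. It was lower than in YC in pBIC10 (-3.30 ± 0.76, edgeR adjusted p = 0.00281) and in pBIC (-2.09 ± 0.69, edgeR adjusted p = 0.0215), in groups where the natural killer cell markers and Cd3e were also lower, though Cd2 was not in pBIC10 replicates 1 and 2. Their part in it was not tested. The pBIC call was lost with any of pBIC replicates 1 and 3 and YC replicates 1 and 4 left out (adjusted p up to 0.071). Its size rested in part on single libraries, at -2.87 without pBIC replicate 2 and -4.10 in pBIC10 without pBIC10 replicate 1.

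Of the related receptor chains, Ifnlr1, the ligand-binding chain of the type III interferon receptor, fell in both lymphomas against YC (0.257 CPM in pBIC, 0.283 in pBIC10 and 5.46 in YC, with edgeR adjusted p = 5.15e-05 and 6.18e-05), and did not pass the test between the lymphomas (0.18, adjusted p = 0.862). Its counts were 4, 7 and 3 in pBIC and 2, 2 and 12 in pBIC10, near the limit of detection. Without pBIC10 replicate 3 its log2 difference of pBIC10 from YC moved from -4.19 to -5.44. Il10ra, the ligand-binding chain for IL-10, was at 92.6 CPM in pBIC, 57.8 in YC and 47.5 in pBIC10. It was lower in pBIC10 than in pBIC (-0.96 ± 0.22, edgeR adjusted p = 0.00532) and higher in pBIC than in YC (0.68 ± 0.20, edgeR adjusted p = 0.0128), the latter lost without pBIC replicate 3 (adjusted p = 0.0615). Il10rb, shared by the receptors of IL-10 and type III interferon, had no call in any comparison.

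Kinases other than Jak2 also differed from YC. Jak1, which binds all the interferon receptors, was at 481 CPM in YC, 151 in pBIC and 114 in pBIC10 (edgeR adjusted p = 6.29e-06 and 1.39e-06 against YC), and Jak3, the kinase of the common cytokine chain, at 211, 63.1 and 69.2 (adjusted p = 0.000155 and 0.00026). Tyk2, bound to IFNAR1, was lower in pBIC10 than in pBIC (-1.22 ± 0.20, edgeR adjusted p = 0.00054) and YC (-1.67 ± 0.19, edgeR adjusted p = 1.87e-05). In pBIC against YC it missed the threshold (-0.44, edgeR adjusted p = 0.0569), though 7 of 22 alternatives called it lower. Stat2, a transcription factor of the type I response, was lower in pBIC10 than in pBIC (-0.88 ± 0.22, edgeR adjusted p = 0.0095) and lower in both lymphomas than in YC (adjusted p = 0.000158 and 5.4e-06). Irf9, its partner, was lower in both than in YC (adjusted p = 0.00678 and 0.00245).

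Of the other phosphatases Ptpn1, Ptpn6, Ptpn11 and Ptprc, none passed the test between pBIC10 and pBIC, as for Ptpn2. Against YC, Ptpn11 was higher in both lymphomas (0.56 and 0.69, edgeR adjusted p = 0.00836 and 0.00232) and Ptprc lower (-1.43 and -0.92, adjusted p = 0.000472 and 0.00753, the second lost in females alone at 0.0658). Ptpn6 was lower in pBIC (-0.91, adjusted p = 0.00515). In pBIC10 it missed the threshold (-0.57, adjusted p = 0.0537), though 10 of 22 alternatives called it lower. Ptpn1 was higher in pBIC (0.53, adjusted p = 0.0342), a call lost in 10 of 22 alternatives. Among them were the omission of any YC library or of pBIC replicate 1 or 3 (adjusted p up to 0.155). Of 7 inhibitors, 2 were higher and 1 lower between pBIC10 and pBIC, near the 30.7% called over all tested genes. Against YC 5 were lower and 0 higher in pBIC, where 27.7% of all tested genes were lower. The counts in pBIC10 against YC were also 5 lower and 0 higher, where 26.9% of all tested genes were lower. Socs1, which blocks JAK kinases, was 5.35 CPM in pBIC10, 27.5 in pBIC and 26.0 in YC (-2.36 in pBIC10 against pBIC, edgeR adjusted p = 2e-05). Socs3, another inhibitor, was 62.6, 4.43 and 47.1 CPM (3.82, edgeR adjusted p = 0.000195), and Sh2b3 was 113, 53.0 and 154 (1.10, edgeR adjusted p = 0.00875). Among receptor turnover and docking genes, 1 was higher and 1 lower of 5 in pBIC10 against pBIC, also near the 30.7% over all tested genes. Prkd2 was lower in both lymphomas than in YC (-2.29 and -1.92, edgeR adjusted p = 6.25e-06 and 1.79e-05), and Rack1 was higher in pBIC (1.04, edgeR adjusted p = 0.000115) and pBIC10 (0.54, edgeR adjusted p = 0.00899).

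**Figure D4:**
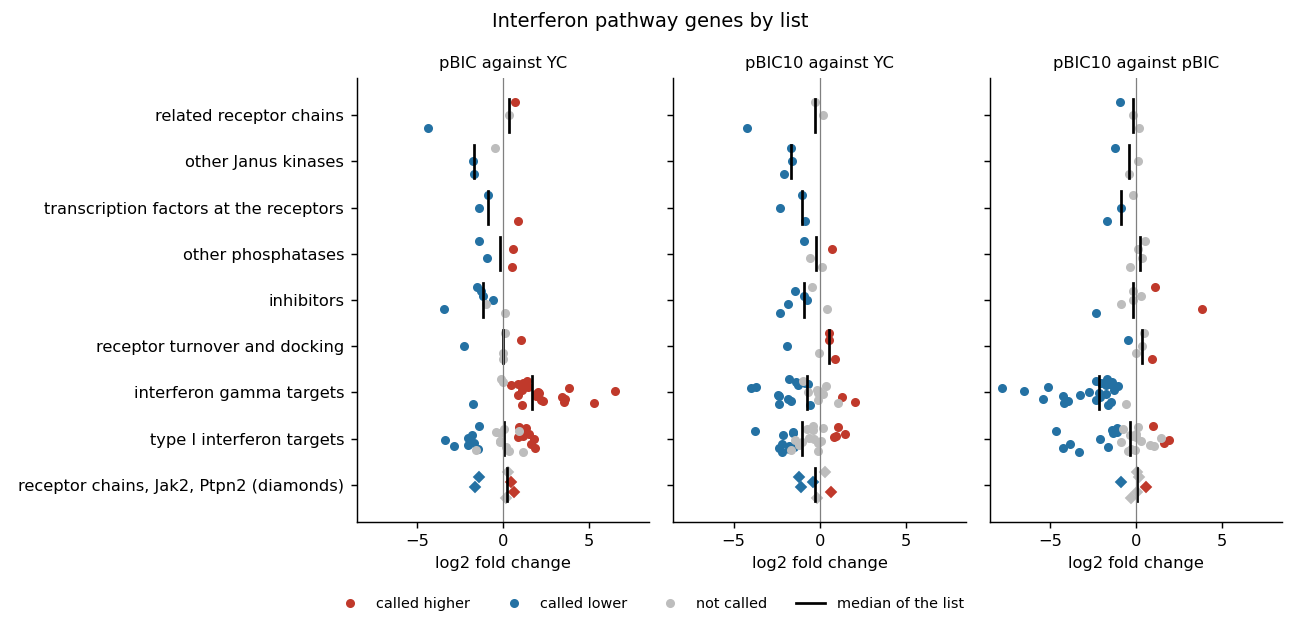
Log2 fold changes (edgeR) of the tested pathway genes other than Ifng, by list, in 3 comparisons, with a point per gene coloured red where called higher, blue where called lower and grey where not called at an adjusted p of 0.05, diamonds for the 6 genes and black lines for the median of each list. Interferon gamma targets lie mainly below 0 in pBIC10 against pBIC (median -2.14) and mainly above 0 in pBIC against YC (median 1.66).

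Targets of interferon gamma were lower in pBIC10 than in pBIC and mostly higher in pBIC than in YC, and all 24 listed were tested. Between pBIC10 and pBIC 23 were lower, 0 higher and 1, Ciita, was not called (median -2.14), where 15.1% of all tested genes were lower. In pBIC against YC 21 were higher and 1, again Ciita, was lower (median 1.66), where 26.4% and 27.7% of all tested genes were. In pBIC10 against YC 2 were higher and 13 lower (median -0.76), where 24.8% and 26.9% were. Some calls against YC were close to the threshold. In pBIC, that of Gbp9 was lost in 17 of 22 alternatives and that of Tap1 in 13. In pBIC10, that of Gbp7, called higher, was lost in 10 of 22. Gbp4, an interferon-induced GTPase, was at 233 CPM in pBIC, 47.4 in YC and 15.1 in pBIC10, lower in pBIC10 than in pBIC by 15.5-fold (-3.95, edgeR adjusted p = 8.73e-06). Gbp8 was at 62.1, 16.6 and 3.22 CPM (19.2-fold, edgeR adjusted p = 5.08e-06), and the transcription factor Irf1 at 252, 120 and 81.6 (3.09-fold, edgeR adjusted p = 1.33e-05). Iigp1 stood at 175 CPM in pBIC, 1.97 in YC and 1.87 in pBIC10, higher in pBIC than in YC (6.47, edgeR adjusted p = 2.09e-05). Gbp3 was higher than in YC in both lymphomas (3.53 and 2.07, edgeR adjusted p = 2.21e-06 and 7.39e-05). Icam1 was lower in pBIC10 than in YC (-1.79, edgeR adjusted p = 4.62e-06). Ciita, the activator of MHC class II genes, was lower than in YC in both (-1.77 and -2.36, edgeR adjusted p = 0.000171 and 2.54e-05).

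Type I interferon targets had calls in both directions. Of 27 tested, 3 were higher and 10 lower in pBIC10 than in pBIC (median -0.35), 9 higher and 8 lower in pBIC than in YC (median 0.04), and 4 higher and 10 lower in pBIC10 than in YC (median -1.03). Over all tested genes 30.7%, 54.1% and 51.7% were called in these comparisons. The share of these targets called in either direction was near that in both comparisons with YC. By direction, 15.6% of all tested genes were higher and 15.1% lower in pBIC10 against pBIC. The shares were 26.4% and 27.7% in pBIC against YC, and 24.8% and 26.9% in pBIC10 against YC. Between pBIC10 and pBIC, the log2 fold change was -4.24 for Mx1 (edgeR adjusted p = 4.27e-05), -4.66 for Zbp1 (adjusted p = 0.000164), -1.42 for Parp9 (adjusted p = 0.000293) and -3.83 for Oas3 (adjusted p = 0.000625). Oas3 was at 39.1, 16.1 and 6.75 CPM in the pBIC libraries and its difference was -2.97 without pBIC replicate 1. That of Mx1 was -5.03 without pBIC10 replicate 1. Sp100 was higher (0.99, edgeR adjusted p = 0.00244) in the same comparison.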

How the data were processed

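Poly(A) RNA of sorted splenic B cells was sequenced on 1 end for 50 nt, per the labels. For all 10 libraries the authors deposited raw counts of reads by gene, made with featureCounts after FastQC on GRCm39, per the submitters' processing notes. Not given in the sources used here: aligner, annotation release, strand setting and versions. Columns all matched a sample, with 0 left over.

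With edgeR 4.0.16 in R 4.3.3, filterByExpr passed 17718 of 46316 genes. A robust quasi-likelihood fit with TMM scaling used every library and a term for each group (7 residual degrees of freedom). Calls needed an adjusted p below 0.05 (two-sided, Benjamini-Hochberg over all tested genes). Every adjusted p is from edgeR except where DESeq2 is named and for the ratios, adjusted over their 9 permutation tests. The SE is the size of the log2 fold change divided by the square root of F. Ratios were compared by exact two-sided permutation tests with scipy 1.17.1. Alternatives included DESeq2 1.42.0, limma-voom (limma 3.58.1), other scalings and filters, a fit of only the groups compared, a sex covariate, females alone, omission of immunoglobulin and T cell receptor genes, a stricter threshold, and leaving out each library.

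The 6 genes and the lists were chosen with earlier results of these data known, and support nothing independently. Named pathway genes are all members of the 4 short lists of receptors, kinases, transcription factors and phosphatases, and up to 4 called genes per list and comparison with the smallest adjusted p. The text gives a part of these and, in 1 further comparison, Sp100, picked after their values were seen. Gbp9, Tap1 and Gbp7 are named outside this rule, for how often their calls were lost. Profiles used log2 CPM with a prior count of 2. Promoters and lengths came from an earlier build, GRCm38. Ptpn2's promoter was not used here, and 1 listed gene is not reported here.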

Additional observations from a re-analysis of the deposited data

Results flagged for a closer look

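Of 9 values checked in the 4 YC libraries, 2 had 1 library far from the others (a gap to the nearest library above Dixon's critical share of the range), which chance gives for about 1 in 20. For Ifngr2, YC replicate 2 stood at 63.1 CPM against 48.3 in the nearest library, a gap of 0.893 of the range. For the log2 ratio of Jak2 to Ptpn2, YC replicate 2 stood at 0.412 against 0.74 in the nearest, a gap of 0.911 of the range.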

How the results depend on the processing

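With the 22 alternatives, the calls of Ifngr2 between pBIC10 and pBIC and of Ifngr1, Jak2 and, in pBIC10, Ifnar2 against YC held. The 6 genes had 1 call between pBIC10 and pBIC with females alone, a sex covariate, only the compared groups in the fit, no filter and adjusted p under 0.01, and 1 to 3 with a library left out (1 without pBIC10 replicate 3 or pBIC replicate 3). In pBIC against YC they had 2 at adjusted p under 0.01 and 2 to 5 with a library left out (2 without pBIC replicate 3). At adjusted p under 0.01, 3145 genes were called between pBIC10 and pBIC against 5440, of which 1656 were higher and 1489 lower. With a library left out, sign changed only for differences that were not called. Between pBIC10 and pBIC these were Ifnar2 (-0.0051 and -0.10, range -0.10 to 0.28), Jak2 (-0.020, -0.010 and -0.012, range -0.02 to 0.53), Ptpn2 (-0.078, -0.029, -0.0090 and -0.095, range -0.10 to 0.20) and the log2 ratio of Jak2 to Ptpn2 (-0.30 to 0.33, with -0.085 and -0.12 between), and in pBIC against YC Ifnar1 (-0.074, range -0.07 to 0.44). Except where fewer samples or a stricter threshold enter, the cause was not tested. The scalings moved the median of all genes by at most 0.0487 in size, on the log2 scale. Counting error was at most 5.21%, so depth limits the 6 genes little. No paired analysis was possible because the labels give the libraries no replicate numbers shared between groups.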

Other observations

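Genes next to the 6 in the reference gene order (GRCm38) were read as a further description, with 25 neighbours and 17 tested. In pBIC10 against pBIC 2 were higher and 3 lower, where 15.6% and 15.1% of all tested genes were. In pBIC against YC 11 were higher and 2 lower, where 26.4% and 27.7% were. In pBIC10 against YC 9 were higher and 3 lower, where 24.8% and 26.9% were. In either direction 30.7%, 54.1% and 51.7% of all tested genes were called. Ifnar2, Il10rb, Ifnar1 and Ifngr2 follow each other on 1 chromosome, and next to Ifngr2 lies Tmem50b, a membrane protein gene, at 26.6 CPM in pBIC10, 45.9 in pBIC and 44.2 in YC. It was lower in pBIC10 than in pBIC (-0.79 ± 0.18, edgeR adjusted p = 0.00531) and than in YC (-0.73 ± 0.17, edgeR adjusted p = 0.00308), whereas Il10rb and Ifnar1 in the same run had no call. Near Ifngr1, Tnfaip3 was lower in pBIC than in YC (-1.10, edgeR adjusted p = 0.00548) and had no other call. Perp, on the same side, was higher in pBIC10 than in YC (3.33, edgeR adjusted p = 0.00401) and than in pBIC (3.10, edgeR adjusted p = 0.0146).

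On the side before Jak2, Rcl1, Ak3 and Cdc37l1 were higher in both lymphomas than in YC, opposite to Jak2. The log2 differences for pBIC were 1.28, 0.99 and 0.65 (edgeR adjusted p = 0.000143, 0.000114 and 0.0169), and those for pBIC10 were 1.13, 1.33 and 0.78 (edgeR adjusted p = 0.000344, 1.22e-05 and 0.0062). Insl6, an insulin-like gene on the other side, was at 15.4 CPM in pBIC, 2.21 in pBIC10 and 2.72 in YC (pBIC10 against pBIC -2.80 ± 0.28, edgeR adjusted p = 1.44e-05). Plgrkt, also on that side, was at 46.7 CPM in pBIC, 16.1 in pBIC10 and 28.8 in YC. Against YC it was higher in pBIC (0.70, edgeR adjusted p = 0.0171) and, as for Jak2, lower in pBIC10 (-0.84, edgeR adjusted p = 0.00802).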
